A study of Mus musculus with 32 samples.

Results

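The genes described here copy DNA and divide cells. They are 41 genes taken by symbol from the 22216 genes of the deposited tables, and each symbol had a single entry. By role, 13 are replication genes (the helicase subunits Mcm2 to Mcm7, their partner Mcm10, the loading factors Cdc6 and Cdt1, the sliding clamp Pcna, and the nucleotide synthesis genes Rrm1, Rrm2 and Tyms). A further 8 are regulators and checkpoint genes (Ccne1, Ccne2, E2f1, E2f8, Uhrf1, Chek1, Brca1 and Fbxo5), and 20 are mitotic genes (Ccna2, Ccnb1, Ccnb2, Cdk1, Plk1, Aurka, Aurkb, Bub1, Bub1b, Ttk, Cdc20, Cenpe, Birc5, Kif11, Kif20a, Tpx2, Nusap1, Prc1, Top2a and Mki67). The study sequenced the RNA of dendritic cells grown from mouse bone marrow, in 32 libraries that form 8 groups of 4. The dKO libraries came from C57BL/6 mice of genotype Lmp7-/-Mecl1-/-, which lack the immunoproteasome subunits encoded by Psmb8 and Psmb10, and the WT libraries from wild-type C57BL/6 mice. Each genotype was sampled without lipopolysaccharide (LPS, a part of the outer membrane of Gram-negative bacteria that triggers dendritic cell maturation) and 1, 2 and 6 h after LPS at 1 ug/mL. Cells of every group had been grown in GM-CSF and were harvested on day 9. The labels give no age or sex of the mice and do not say whether the 4 libraries of a group are separate mice or cultures, so the p-values rest on differences among libraries that may be technical repeats.

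Before a cell copies its DNA, Cdc6 and Cdt1 load the Mcm helicase onto replication origins, cyclin E with its kinase starts synthesis, and ribonucleotide reductase and thymidylate synthase supply the nucleotides. E2F transcription factors drive many of these genes at entry into S phase, while a later wave of genes for the spindle, the kinetochores and cyclin B is tied to promoter elements called CHR, which the DREAM and MuvB complexes contact, and CCAAT boxes, which NF-Y binds. Precursors in GM-CSF cultures divide, whereas mature dendritic cells divide little.

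The promoters of 35 of the 41 genes were matched by symbol in RefSeq (GRCm38.p6), 32 of them with 1 start site and 3 with 2. In the 300 bases around each start (250 before it and 50 after), both strands were searched for an E2F element (TTTCCCGC, TTTCGCGC, TTTGCCGC or TTTGGCGC), a CHR (TTTGAA or TTCGAA) and CCAAT. An E2F element was found in 6 of 12 replication genes (50%), in 1 of 7 regulators and in 1 of 16 mitotic genes (6.25%), against 2.6% of all 27025 genes with a promoter in the table. A CHR was found in 12 of 16 mitotic genes (75.0%), in 2 of 12 replication genes and in 2 of 7 regulators, against 21.7% of all genes. CCAAT was found in 14 of 16 mitotic genes, 9 of 12 replication genes and 4 of 7 regulators, against 41.1% of all genes. These matches are letters in a window and do not show that a factor binds there. The 250 bases before the start are printed for 6 of these genes, chosen for their matches as examples of the elements: 3 replication genes with an E2F element, followed by 3 mitotic genes with a CHR, of which Cdk1 also holds an E2F element. Other members differ, since Rrm2 and Pcna had no E2F match and Mcm2 and Mcm7 had a CHR. Capitals mark the E2F, CHR and CCAAT matches on either strand. The first capital run of Mcm5 and of Mcm6 holds overlapping E2F elements on opposite strands.
Mcm5 (GRCm38.p6, chr8:75109259-75109508, plus strand): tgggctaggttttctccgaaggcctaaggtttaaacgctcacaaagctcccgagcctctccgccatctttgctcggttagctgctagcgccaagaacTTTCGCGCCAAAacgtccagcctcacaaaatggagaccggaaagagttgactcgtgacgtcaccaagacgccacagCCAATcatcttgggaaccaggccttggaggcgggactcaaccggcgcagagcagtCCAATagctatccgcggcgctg
Mcm6 (GRCm38.p6, chr1:128359706-128359955, minus strand): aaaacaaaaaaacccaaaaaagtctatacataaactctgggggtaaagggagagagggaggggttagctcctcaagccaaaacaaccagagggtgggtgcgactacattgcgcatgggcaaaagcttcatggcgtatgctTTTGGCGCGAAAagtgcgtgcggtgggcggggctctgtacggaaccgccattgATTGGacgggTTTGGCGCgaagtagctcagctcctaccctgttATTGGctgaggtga
Cdc6 (GRCm38.p6, chr11:98907901-98908150, plus strand): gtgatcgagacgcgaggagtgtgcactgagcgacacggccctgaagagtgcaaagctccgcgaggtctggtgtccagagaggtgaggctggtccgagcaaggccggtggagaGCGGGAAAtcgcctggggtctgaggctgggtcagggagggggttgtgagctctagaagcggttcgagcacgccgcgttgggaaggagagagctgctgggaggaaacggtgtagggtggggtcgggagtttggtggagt
Cdk1 (GRCm38.p6, chr10:69352913-69353162, minus strand): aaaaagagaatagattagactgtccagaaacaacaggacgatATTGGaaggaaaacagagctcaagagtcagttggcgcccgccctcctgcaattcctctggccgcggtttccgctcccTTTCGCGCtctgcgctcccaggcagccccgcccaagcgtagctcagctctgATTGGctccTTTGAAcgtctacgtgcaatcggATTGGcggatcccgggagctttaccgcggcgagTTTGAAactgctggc
Kif11 (GRCm38.p6, chr19:37376132-37376381, plus strand): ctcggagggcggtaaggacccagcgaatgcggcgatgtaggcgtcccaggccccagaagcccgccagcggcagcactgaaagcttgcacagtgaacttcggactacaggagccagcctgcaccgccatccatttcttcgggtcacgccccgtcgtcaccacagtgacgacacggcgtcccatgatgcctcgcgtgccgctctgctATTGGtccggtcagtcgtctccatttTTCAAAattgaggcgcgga
Mki67 (GRCm38.p6, chr7:135716380-135716629, minus strand): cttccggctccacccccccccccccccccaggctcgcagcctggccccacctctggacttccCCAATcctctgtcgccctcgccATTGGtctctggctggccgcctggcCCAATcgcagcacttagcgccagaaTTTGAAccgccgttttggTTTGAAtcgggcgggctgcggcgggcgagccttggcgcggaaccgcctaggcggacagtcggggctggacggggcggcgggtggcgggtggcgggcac

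**Figure D1:**
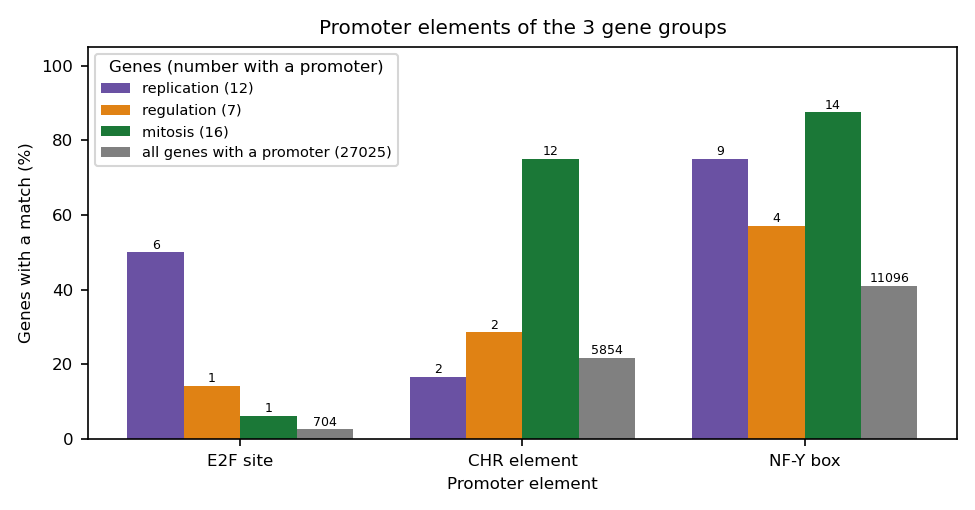
The plot gives the percentage of promoters with at least 1 match to an E2F element, a CHR or CCAAT, for replication genes, regulators, mitotic genes and all genes of the table. The numbers above the bars are genes with a match, and CCAAT is drawn as the NF-Y box, after the factor that binds it. E2F elements stand out in replication genes (50%, against 2.6% of all genes) and CHR elements in mitotic genes (75.0%, against 21.7%).

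The tables give reads per kilobase of gene, scaled to library depth (RPKM), so levels of different genes can be set side by side. The deposited coverage summed to between 1.27 and 1.87 Gb (gigabases) per library. Psmb8 did not exceed 7.42 RPKM in any dKO library and was at least 150.3 RPKM in every WT library, and Psmb10 did not exceed 17.1 RPKM in dKO and was at least 41.6 RPKM in WT. Over all genes, 5 dKO libraries correlated best with WT libraries of an LPS time other than their own label: replicate 2 at 0 h (nearest to WT at 1 h), replicate 2 at 1 h (WT at 2 h), replicates 2 and 4 at 2 h (WT at 0 h and at 6 h), and replicate 4 at 6 h (WT at 2 h). All WT libraries and the other 11 dKO libraries were nearest to their own time. Il6, a cytokine gene that LPS induces, was at 1124 RPKM in the library labelled dKO replicate 2 at 0 h and at 1.67 RPKM in that labelled dKO replicate 2 at 2 h, while WT libraries did not exceed 2.16 RPKM at 0 h and were at least 1308 RPKM at 2 h. The nearest times form closed exchanges among 3 libraries of replicate 2 and 2 of replicate 4, so these 5 time labels may be wrong, which was not tested. The labels were kept, and a dKO value at a single time is therefore that of the libraries so labelled. Comparisons at single times are therefore given with and without these 5 libraries. Leaving them out leaves 2 dKO libraries at 2 h and 3 at 0, 1 and 6 h. It also narrows the spread estimate shared by all groups, so adjusted p falls even where no value changed. For E2f1 in WT at 1 h of LPS, the log2 change was -0.55 both ways, with limma adjusted p = 0.12 and 8.47e-06. The average over the 4 times gives equal weight to all 16 libraries of a genotype, whatever their LPS time. Summed over 9 genes, dendritic cell markers were at 6971 to 12040 RPKM in dKO and 9288 to 13565 RPKM in WT. Most of this was Cd74 (median 6731 RPKM in dKO, 7746 in WT) and H2-Ab1 (2155 in dKO, 2309 in WT). On average 7 of the 9 were lower in dKO by limma, where 23.4% of all genes were. Batf3 lay between 12.1 and 23.5 RPKM in dKO and between 25.6 and 44.7 RPKM in WT, the only gene of the 9 without overlap.

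Among the members the level varied widely without LPS. In the WT libraries at 0 h Pcna was highest, at 69.2 ± 4.7 RPKM (SD, n = 4), followed by Mcm6 at 25.0 ± 2.3 and Mcm3 at 24.8 ± 2.0, which differed by less than their spread. Top2a, the topoisomerase that untangles chromosomes, was at 24.4 ± 2.3 RPKM, and Mki67, the proliferation marker Ki-67, at 20.2 ± 2.4 RPKM. Cdc6 (1.84 ± 0.27 RPKM) and the checkpoint kinase gene Chek1 (0.979 ± 0.255 RPKM) were lowest. Chek1 did not pass the filter of 1 RPKM in at least 4 libraries, so 40 of the 41 genes were tested. Chek1 at 0 h lay between 0.192 and 0.516 RPKM in the dKO libraries and between 0.752 and 1.31 RPKM in the WT libraries, with no overlap.

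Without the immunoproteasome subunits the replication and mitosis genes were lower. Averaged over the 4 times, 33 of 40 were lower in dKO and 0 higher by limma (adjusted p below 0.05), where 23.4% of all 11154 genes tested were lower and 7.73% higher. All 40 estimates lay below 0, as did 68.5% of all genes. The median log2 change, dKO minus WT on log2(RPKM + 0.5), was -0.69 for the members and -0.10 for all genes. By role, 11 of 13 replication genes (median -0.67), 4 of 7 regulators (median -0.53) and 18 of 20 mitotic genes (median -0.72) were lower. The lowest were Uhrf1 (-1.07 ± 0.14, SE), Birc5 (-1.05 ± 0.18), Plk1 (-0.97 ± 0.16) and Brca1 (-0.94 ± 0.08). Not called were Pcna, Cdt1, E2f1, E2f8, Fbxo5, Bub1b and Mki67. Without the 5 libraries 38 of 40 were lower on average, where 45% of all genes were. In 2 other scalings of the libraries, median-of-ratios and quantile normalization, 30 of the 33 were also lower, and all 33 calls were kept whichever single library was left out.

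At single times the counts rested more on the 5 libraries. At 0 h 15 of 40 members were lower in dKO (5.91% of all genes), at 1 h 23 (9.02%), at 2 h 8 (7.24%) and at 6 h 5 (10.2%), and 0 were higher at any time by limma, where 0.932%, 1.84%, 5.15% and 4.55% of all genes were. At an unadjusted p below 0.05, 35, 32, 24 and 9 members changed at 0, 1, 2 and 6 h. No share of all genes is given for these counts, so they cannot be set against it. Quantile normalization called 1 member higher at 6 h. The members' median log2 changes were -0.90, -0.93, -0.57 and -0.31, against -0.19, -0.18, 0.09 and -0.15 for all genes. Without the 5 libraries 39, 37, 27 and 22 members were lower, where 19.4%, 29.4%, 23.8% and 33% of all genes were, and 2, Pcna and E2f8, were higher at 6 h (13.9% of all genes). The 4 dKO libraries lay wholly below the 4 WT libraries for 37, 31, 3 and 11 of the 40 members, which held for 22.9%, 26.4%, 7.41% and 23% of all genes. At 6 h they lay wholly above for Pcna and E2f8, as for 8.09% of all genes. Leaving out a single library moved these counts of calls to between 6 and 31 at 0 h, 11 and 31 at 1 h, 1 and 24 at 2 h, and 2 and 7 at 6 h, the highest each without dKO replicate 2 at 2 h. In these bulk samples fewer dividing cells and less RNA per cell cannot be told apart.

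**Figure D2:**
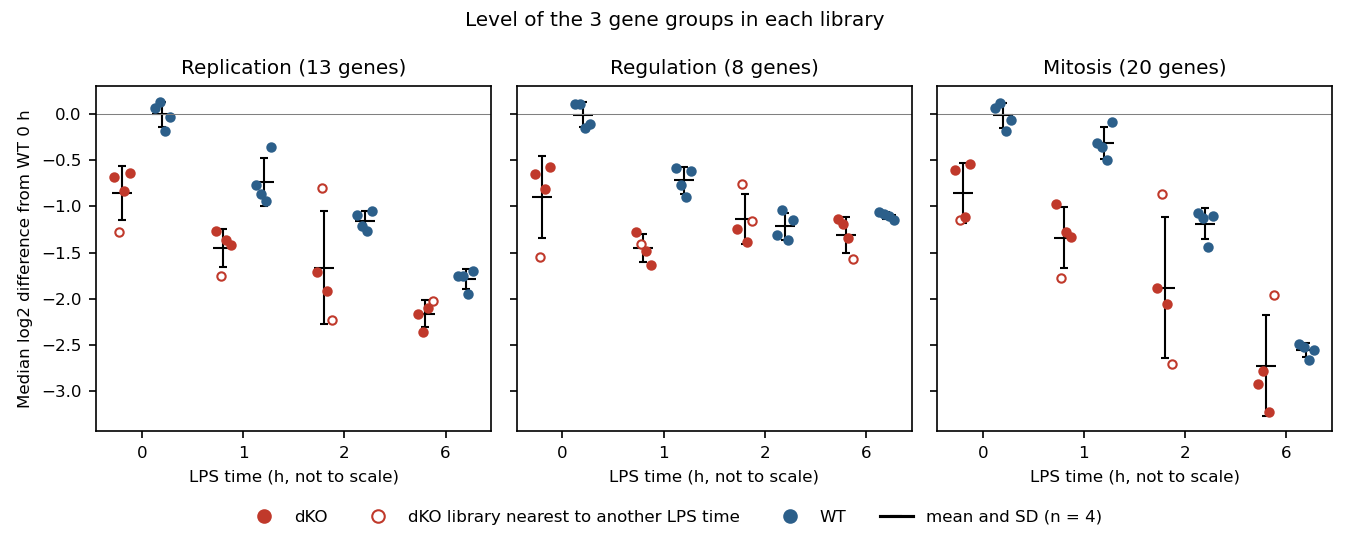
Each point is 1 library; the vertical axis gives the median, over the genes of a role, of log2(RPKM + 0.5) minus its mean in WT without LPS, and the horizontal axis the labelled LPS time, with dKO left of WT and the 5 dKO libraries of another apparent time marked. At 0 h the dKO medians lay between -1.28 and -0.63 for replication genes and between -1.15 and -0.54 for mitotic genes, all below the WT libraries.

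Among the replication genes all 6 subunits of the Mcm helicase were lower on average. Mcm6 (chr1:130228168-130256233, mm9) in the dKO libraries, replicates 1 to 4, had 13.9, 8.04, 13.7 and 15.8 RPKM at 0 h, 7.63, 4.71, 6.20 and 5.87 at 1 h, 4.39, 12.6, 3.52 and 3.23 at 2 h, and 4.05, 3.14, 3.36 and 2.98 at 6 h. Mcm6 in the WT libraries had 25.9, 27.2, 21.9 and 25.0 RPKM at 0 h, 14.5, 13.1, 12.6 and 17.6 at 1 h, 8.04, 7.18, 6.75 and 9.61 at 2 h, and 6.96, 5.63, 5.27 and 7.27 at 6 h. All dKO libraries were below all WT libraries at 0, 1 and 6 h, and at 2 h dKO replicate 2 lay above the WT libraries while the other 3 lay below. The average log2 change was -0.88 ± 0.13 (limma adjusted p = 3.47e-06), with -0.97, -1.18, -0.58 and -0.80 at 0, 1, 2 and 6 h. The call at 0 h (limma adjusted p = 0.018) was lost without WT replicate 1 (-0.95), WT replicate 2 (-0.93) or dKO replicate 2 (-0.76) of that time. The change at 2 h was not called with all libraries (limma adjusted p = 0.142). Without the 5 libraries, which leaves 2 dKO libraries at 2 h, it was -0.91 (limma adjusted p = 4.22e-05).

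Mcm5 (chr8:77633427-77652338), another subunit of the ring, had in the dKO libraries 8.49, 4.17, 5.93 and 8.33 RPKM at 0 h, 4.71, 2.88, 3.16 and 2.99 at 1 h, 2.48, 5.93, 2.38 and 2.10 at 2 h, and 2.21, 2.24, 1.89 and 2.13 at 6 h. Mcm5 in the WT libraries had 14.8, 15.2, 12.6 and 13 RPKM at 0 h, 7.55, 6.43, 6.07 and 9.18 at 1 h, 5.17, 4.10, 4.44 and 5.91 at 2 h, and 3.73, 3.47, 3.00 and 3.86 at 6 h. The groups did not overlap at 0, 1 and 6 h, and dKO replicate 2 alone overlapped the WT libraries at 2 h. Mcm5 was lower on average by limma (log2 change -0.82 ± 0.11, adjusted p = 1.11e-06). The other subunits averaged -0.53 (Mcm4), -0.67 (Mcm3), -0.70 (Mcm2) and -0.71 (Mcm7) in log2 change, and Mcm10, which helps start the helicase, -0.66, and all were called lower. Mcm7 is the host of the microRNAs Mir25, Mir93 and Mir106b, whose entries overlap it, and the counting rule for overlapping entries is not given in the sources used here.

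Cdc6 (chr11:98769203-98785256), the loading factor, was lower at 0 h. The dKO libraries had for Cdc6 0.802, 0.459, 0.642 and 0.986 RPKM at 0 h, 0.270, 0.318, 0.412 and 0.508 at 1 h, 0.119, 0.681, 0.176 and 0.0880 at 2 h, and 0, 0.0868, 0.0903 and 0.221 at 6 h. The WT libraries had for Cdc6 1.89, 2.17, 1.52 and 1.77 RPKM at 0 h, 0.433, 0.553, 0.318 and 0.536 at 1 h, 0.299, 0.412, 0.191 and 0.402 at 2 h, and 0.182, 0.0623, 0.181 and 0.216 at 6 h. Without LPS every dKO library was below every WT library, while the groups overlapped at 1, 2 and 6 h, when all but 1 library were under 0.6 RPKM and 1 dKO library is listed at 0. Cdc6 was lower at 0 h (log2 change -0.95 ± 0.18, limma adjusted p = 0.000891) and was not called at 1, 2 or 6 h (-0.13, -0.16 and -0.15). Only the WT libraries at 0 h reached 1 RPKM, so Cdc6 passed the filter through that group alone. Its calls against that group therefore rest on the libraries that admitted it. At such low levels log2(RPKM + 0.5) understates a fold change. Cdt1, its partner in loading, averaged -0.01 ± 0.09 in log2 change, with a 95% interval of -0.19 to 0.17. At 0 h Cdt1 had 5.87 ± 0.99 RPKM in dKO and 8.67 ± 0.48 RPKM in WT (SD, n = 4 each) with no overlap, and at 1 h 4.10 ± 1.31 RPKM in dKO and 3.83 ± 0.49 RPKM in WT.

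Rrm2 (chr12:25393119-25399011), the regulated subunit of ribonucleotide reductase, in the dKO libraries had 9.84, 7.14, 6.45 and 9.68 RPKM at 0 h, 9.54, 5.40, 6.29 and 6.58 at 1 h, 5.34, 7.6, 3.99 and 1.35 at 2 h, and 0.902, 1.08, 0.677 and 3.56 at 6 h. Rrm2 in the WT libraries had 20.3, 18.8, 14.0 and 15.4 RPKM at 0 h, 15.8, 12.7, 11.6 and 17.8 at 1 h, 8.52, 7.02, 6.76 and 8.84 at 2 h, and 1.84, 1.08, 1.65 and 1.78 at 6 h. At 0 and 1 h all dKO libraries were lower, and at 6 h dKO replicate 4, one of the 5 libraries, was the highest of the 8. The average log2 change was -0.78 ± 0.16 (limma adjusted p = 5.02e-04), close to that of Rrm1, the other subunit (-0.75 ± 0.12). Tyms, thymidylate synthase, was lower on average by 0.41 ± 0.12 on the log2 scale (limma adjusted p = 0.00997). At 0 h Tyms had 1.58 ± 0.12 RPKM in dKO and 3.08 ± 0.24 RPKM in WT.

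Pcna (chr2:132075022-132078916), the sliding clamp for DNA polymerases and by far the most abundant member, in the dKO libraries had 54.5, 55.8, 52.1 and 56.9 RPKM at 0 h, 60.8, 72.1, 58.9 and 63.5 at 1 h, 72.0, 51.6, 78.0 and 42.0 at 2 h, and 40.6, 36.1, 37.8 and 78.2 at 6 h. Pcna in the WT libraries had 70.9, 71.9, 62.2 and 71.9 RPKM at 0 h, 74.1, 68.5, 63.6 and 76.8 at 1 h, 79.5, 78.4, 72.2 and 82.9 at 2 h, and 31.9, 35.5, 33.3 and 32.7 at 6 h. Every dKO library was lower at 0 h and every dKO library higher at 6 h, with overlap at 1 and 2 h. Neither difference was called by limma with all libraries (log2 change -0.33 ± 0.17 at 0 h, adjusted p = 0.300, and 0.45 ± 0.17 at 6 h, adjusted p = 0.0816). The exact two-sided permutation test gave p = 0.0286 at both times, the smallest that 8 libraries allow, unadjusted over the members. Without the 5 libraries the log2 changes were -0.34 at 0 h and 0.19 at 6 h (limma adjusted p = 3.55e-04 and 0.0209).

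**Figure D3:**
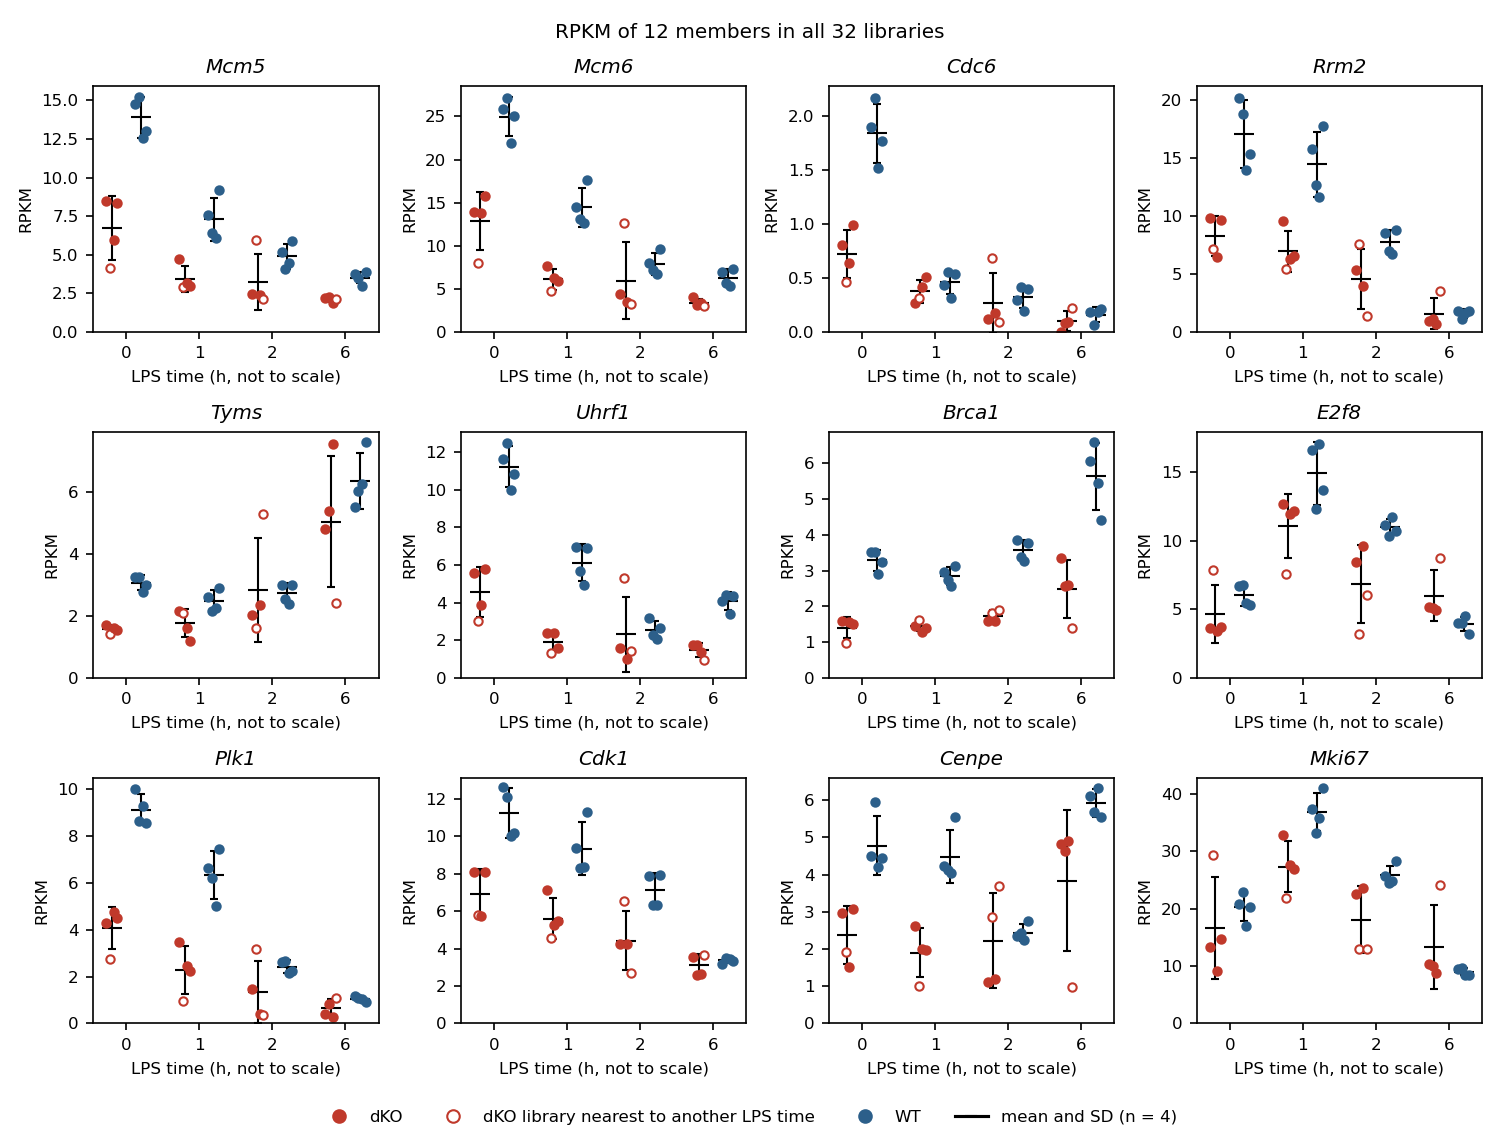
RPKM of 12 members, on a panel each, by labelled LPS time, with dKO left of WT, a point per library (open for the 5 dKO libraries), and bars for the mean and SD of the 4 libraries. At 0 h the dKO libraries lie wholly below the WT libraries for 10 of the 12, as for 22.9% of all genes, and overlap them for E2f8 and Mki67. Several of the 12 were chosen by their adjusted p in these data, so this count is no test.

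Among the regulators Uhrf1 and Brca1 were lower, while E2f1 was not called. Uhrf1 (chr17:56442760-56462909), which carries DNA methylation through replication, in the dKO libraries had 5.56, 3.03, 3.86 and 5.78 RPKM at 0 h, 2.37, 1.30, 2.36 and 1.60 at 1 h, 1.58, 5.29, 0.990 and 1.42 at 2 h, and 1.74, 1.74, 1.39 and 0.965 at 6 h. Uhrf1 in the WT libraries had 11.6, 12.5, 9.98 and 10.8 RPKM at 0 h, 6.97, 5.66, 4.94 and 6.91 at 1 h, 3.15, 2.28, 2.06 and 2.63 at 2 h, and 4.10, 4.41, 3.38 and 4.36 at 6 h. No dKO library reached the WT range at 0, 1 or 6 h, and at 2 h dKO replicate 2 exceeded all 4 WT libraries. The average log2 change was -1.07 ± 0.14 (limma adjusted p = 4.15e-07), and the change at 2 h was -0.31 with all libraries and -0.77 without the 5.

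Brca1 (chr11:101350078-101413269), a repair and checkpoint gene, had in the dKO libraries 1.57, 0.978, 1.55 and 1.51 RPKM at 0 h, 1.46, 1.61, 1.29 and 1.39 at 1 h, 1.59, 1.82, 1.60 and 1.91 at 2 h, and 3.35, 2.56, 2.60 and 1.39 at 6 h. Brca1 in the WT libraries had 3.51, 3.53, 2.90 and 3.24 RPKM at 0 h, 2.95, 2.74, 2.56 and 3.13 at 1 h, 3.86, 3.39, 3.26 and 3.78 at 2 h, and 6.06, 6.60, 5.45 and 4.41 at 6 h. The groups did not overlap at any of the 4 times. Brca1 was called lower at each time by limma (log2 change -1.01, -0.79, -0.87 and -1.08 at 0, 1, 2 and 6 h, each ± 0.16) and had the smallest adjusted p of the members on average (2.95e-10). Over all 16 libraries of a genotype Brca1 averaged 1.76 RPKM in dKO, which is 45.9% of the 3.84 RPKM in WT.

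E2f1 (chr2:154385375-154395588), the transcription factor that drives entry into S phase, had in the dKO libraries 14.2, 9.14, 11.6 and 14.1 RPKM at 0 h, 10.4, 4.73, 9.73 and 10.6 at 1 h, 6.46, 12.9, 5.66 and 2.12 at 2 h, and 2.02, 3.02, 2.21 and 4.56 at 6 h. E2f1 in the WT libraries had 16.2, 14.5, 14.7 and 13.9 RPKM at 0 h, 10.1, 10.5, 9.78 and 9.45 at 1 h, 5.20, 6.24, 5.55 and 4.71 at 2 h, and 2.88, 2.96, 3.27 and 3.16 at 6 h. The groups overlapped at all 4 times, and at each time the dKO library farthest outside the WT range was one of the 5. Its average log2 change was -0.13 ± 0.15 (95% interval -0.44 to 0.17, limma adjusted p = 0.556), so a change as large as that of Uhrf1 lies outside the interval. E2f8, a repressor of the same family, averaged -0.27 ± 0.12 (limma adjusted p = 0.108).

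Fbxo5 (chr10:4541076-4547383), an inhibitor of the anaphase-promoting complex, had in the dKO libraries 3.44, 0.627, 3.37 and 3.91 RPKM at 0 h, 1.05, 0.735, 0.399 and 1.04 at 1 h, 0.538, 4.27, 0.260 and 0.589 at 2 h, and 0.665, 0.763, 0.471 and 0.375 at 6 h. Fbxo5 in the WT libraries had 5.24, 6.65, 6.24 and 4.93 RPKM at 0 h, 1.77, 1.96, 1.67 and 1.70 at 1 h, 0.748, 0.627, 0.579 and 0.798 at 2 h, and 0.595, 0.928, 0.629 and 0.995 at 6 h. At 0 and 1 h all dKO libraries were lower, while at 2 h dKO replicate 2 lay far above the other 7 libraries. The average was -0.48 ± 0.19 and was not called (limma adjusted p = 0.0583), whereas without the 5 libraries it was -0.51 (limma adjusted p = 1.48e-05). Of the cyclin E genes, which start S phase, Ccne1 averaged -0.79 ± 0.18 and Ccne2 -0.53 ± 0.12, and both were called lower. The entry of Ccne2 overlaps that of Ints8 over 5622 bases, and since strand use in the counting is not given, reads of the pair may be mixed.

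Of the mitotic genes 18 of 20 were lower on average. Plk1 (chr7:129302951-129313389), the kinase of mitotic entry and spindle assembly, in the dKO libraries had 4.27, 2.75, 4.77 and 4.51 RPKM at 0 h, 3.48, 0.956, 2.44 and 2.24 at 1 h, 1.47, 3.20, 0.395 and 0.376 at 2 h, and 0.385, 0.840, 0.293 and 1.08 at 6 h. Plk1 in the WT libraries had 9.99, 8.65, 9.26 and 8.56 RPKM at 0 h, 6.63, 6.21, 5.02 and 7.45 at 1 h, 2.64, 2.67, 2.15 and 2.25 at 2 h, and 1.18, 1.10, 1.05 and 0.908 at 6 h. At 0 and 1 h every dKO library was lower, while dKO replicate 2 at 2 h was above all WT libraries and dKO replicate 4 at 6 h was within their range. Plk1 averaged -0.97 ± 0.16 in log2 change (limma adjusted p = 2.36e-05), with -1.37 ± 0.32 at 1 h (adjusted p = 0.00444, and -1.09 without the 5 libraries).

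Cdk1 (chr10:68799383-68815660), the kinase that cyclin B activates, had in the dKO libraries 8.07, 5.77, 5.71 and 8.08 RPKM at 0 h, 7.15, 4.56, 5.25 and 5.47 at 1 h, 4.26, 6.52, 4.23 and 2.70 at 2 h, and 3.56, 2.61, 2.66 and 3.66 at 6 h. Cdk1 in the WT libraries had 12.6, 12.1, 10.0 and 10.2 RPKM at 0 h, 9.35, 8.30, 8.36 and 11.3 at 1 h, 7.87, 6.33, 6.34 and 7.91 at 2 h, and 3.19, 3.51, 3.43 and 3.36 at 6 h. The dKO libraries were lower at 0 and 1 h without overlap, 3 of 4 were lower at 2 h, and the groups were mixed at 6 h. Its log2 changes were -0.67, -0.69, -0.67 and -0.11 at 0, 1, 2 and 6 h (each ± 0.18), the first 3 called by limma (adjusted p = 0.0186, 0.0103 and 0.012). The call at 0 h was lost without WT replicate 1 (-0.62), WT replicate 2 (-0.64), dKO replicate 2 (-0.60) or dKO replicate 3 (-0.59) of that time. The call at 1 h was lost without WT replicate 4 (-0.60), and the call at 2 h without dKO replicate 4 (-0.49).

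Kif11 (chr19:37450893-37496349), the motor that separates spindle poles, had in the dKO libraries 3.74, 2.99, 2.34 and 3.61 RPKM at 0 h, 3.31, 1.66, 2.04 and 2.47 at 1 h, 1.36, 3.64, 1.18 and 0.597 at 2 h, and 0.442, 0.561, 0.336 and 1.12 at 6 h. Kif11 in the WT libraries had 6.99, 8.26, 5.97 and 6.29 RPKM at 0 h, 5.11, 5.77, 4.85 and 6.51 at 1 h, 2.23, 2.90, 1.61 and 2.88 at 2 h, and 0.661, 0.599, 0.629 and 0.511 at 6 h. At 0 and 1 h the groups were apart, with the dKO libraries lower, and at 2 and 6 h they overlapped. The average log2 change was -0.67 ± 0.13 (limma adjusted p = 2.30e-04). The listed entry of Snora19 spans that of Kif11.

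Ccna2 (chr3:36463787-36470918), cyclin A2 of S phase and early mitosis, had in the dKO libraries 10.4, 5.22, 6.08 and 9.35 RPKM at 0 h, 6.79, 4.02, 4.35 and 4.16 at 1 h, 2.53, 6.96, 2.75 and 0.912 at 2 h, and 0.859, 0.485, 0.443 and 2.5 at 6 h. Ccna2 in the WT libraries had 16.7, 18.0, 13.4 and 16.3 RPKM at 0 h, 10.7, 12, 9.68 and 13.9 at 1 h, 5.18, 5.09, 3.95 and 6.18 at 2 h, and 1.94, 1.19, 0.870 and 1.18 at 6 h. The dKO libraries were lower at 0 and 1 h without overlap, and dKO replicate 2 at 2 h and replicate 4 at 6 h were each the highest of their 8 libraries. Ccna2 averaged -0.84 ± 0.17 (limma adjusted p = 3.62e-04). At 6 h its log2 change was -0.33 with all libraries (adjusted p = 0.574) and -0.70 without the 5 (adjusted p = 0.00499).

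Mki67 (chr7:142881471-142908062) was not called lower on average. The dKO libraries had for Mki67 13.4, 29.4, 9.06 and 14.7 RPKM at 0 h, 32.8, 21.9, 27.7 and 26.9 at 1 h, 22.6, 13, 23.7 and 13 at 2 h, and 10.4, 9.94, 8.77 and 24.2 at 6 h. The WT libraries had for Mki67 20.8, 22.8, 17.0 and 20.3 RPKM at 0 h, 37.4, 33.2, 35.7 and 41.1 at 1 h, 25.7, 24.6, 24.9 and 28.2 at 2 h, and 9.44, 9.72, 8.49 and 8.53 at 6 h. At 0 h dKO replicate 2, one of the 5 libraries, was the highest of the 8 and the other 3 dKO libraries were below all WT libraries. The average log2 change was -0.24 ± 0.13 (limma adjusted p = 0.174), and at 0 h it was -0.40 with all libraries (adjusted p = 0.435) and -0.71 without the 5 (adjusted p = 5.69e-05).

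Of the other 15 mitotic genes 14 were lower on average. Birc5, the survivin subunit of the chromosomal passenger complex, was at 8.85 ± 2.26 RPKM in dKO and 19.6 ± 2.7 RPKM in WT at 0 h (SD, n = 4 each). The kinase of the same complex, Aurkb, averaged -0.63 ± 0.16 in log2 change, and the spindle pole kinase Aurka -0.68 ± 0.15. Cyclin B genes averaged -0.77 ± 0.14 (Ccnb1) and -0.73 ± 0.17 (Ccnb2), and Cdc20, which activates the anaphase-promoting complex, -0.82 ± 0.19. Of the spindle checkpoint kinases, Bub1 averaged -0.66 ± 0.12 and Ttk -0.50 ± 0.13. Bub1b, the gene of BubR1, averaged -0.17 ± 0.20 (95% interval -0.58 to 0.25) and was not called. Of the motor and spindle genes, Kif20a averaged -0.91 ± 0.19, Cenpe, a kinetochore motor, -0.74 ± 0.16, Tpx2, which activates Aurka, -0.71 ± 0.14, Nusap1 -0.74 ± 0.13 and Prc1 -0.46 ± 0.16. Top2a averaged -0.83 ± 0.16. Ccnb2, Ttk and Chek1 lie within a very wide listed entry of Cdkn2d, and how reads there were assigned is not given.

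**Figure D4:**
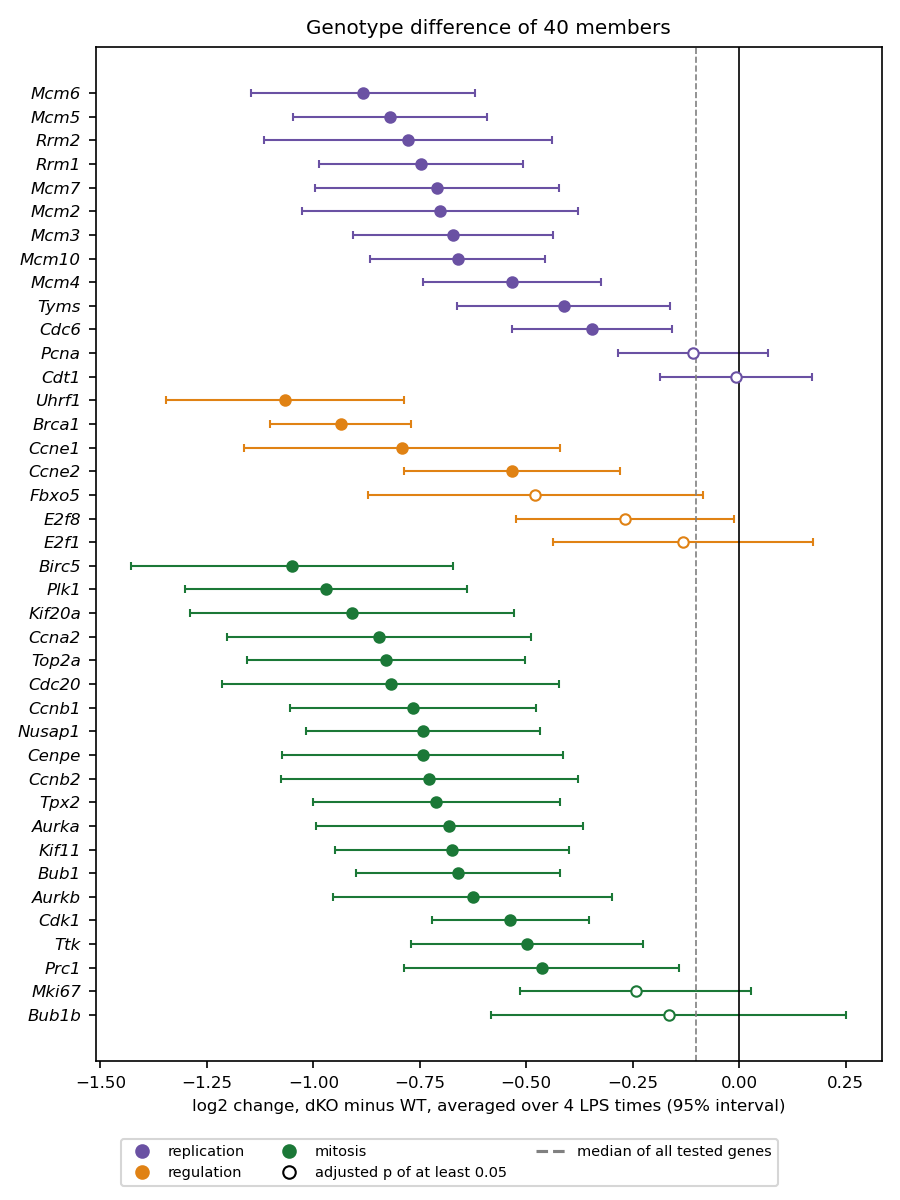
Points give the log2 change, dKO minus WT averaged over the 4 times, with 95% intervals, for the 40 tested members by role, and vertical lines mark 0 and the median of all genes (-0.10). Pcna, Cdt1, E2f1, Fbxo5, E2f8, Bub1b and Mki67 were not called, and Uhrf1 (-1.07) and Birc5 (-1.05) were lowest.

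Other genes of the same pathways, from lists of genes that are no members, were lower too. Of 40 tested genes on a list of other replication genes 27 were lower on average and 0 higher by limma, where 23.4% of all genes were lower and 7.73% higher. Of 46 tested genes on a list of other mitosis genes 40 were lower and 1 higher, among them the kinase gene Melk at 2.07 ± 0.69 RPKM in dKO and 4.13 ± 1.17 RPKM in WT (SD over 16 libraries each, LPS times included). Of 13 tested E2F family and pocket protein genes only E2f7 and E2f2 were lower, with log2 changes of -0.30 ± 0.09 and -0.59 ± 0.20, and 0 were higher by limma, a share no larger than that of all genes.

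Summed markers of myeloid progenitors were lower in dKO. With the 4 LPS times pooled, sums of the other cell types overlapped between the genotypes, while granulocyte and macrophage sums did not at 0 h. The summed level of 8 myeloid progenitor markers, none of them at 0 in all libraries, lay between 2.67 and 5.06 RPKM in dKO and between 7.32 and 15.5 RPKM in WT, with no overlap over all 16 libraries of each genotype. All 5 that passed the filter were lower on average by limma, where 23.4% of all genes were. Among them Kit, the stem cell factor receptor, had a median of 1.46 RPKM in dKO and 3.11 RPKM in WT. Of the 5, at least Elane and Prtn3 passed the filter only through WT libraries, since they did not exceed 0.406 and 0.821 RPKM in dKO. For such genes the filter itself favours a lower call in dKO. Summed granulocyte markers (8 genes) lay between 262 and 551 RPKM in dKO and between 433 and 1333 RPKM in WT, macrophage markers (8 genes) between 652 and 1873 RPKM in dKO and between 435 and 1416 RPKM in WT, and 6 mast cell and basophil markers between 2.90 and 9.14 RPKM in dKO and between 4.82 and 18.8 RPKM in WT. At 0 h alone the granulocyte sums were 356 to 505 RPKM in dKO and 631 to 803 RPKM in WT, with no overlap. The macrophage sums at 0 h were 817 to 1646 RPKM in dKO and 682 to 737 RPKM in WT, also with no overlap. Sums of dendritic cell, mast cell and basophil, lymphocyte and erythroid markers overlapped at 0 h. By limma on average, 5 of 8 granulocyte markers were lower and 1 higher, where 23.4% of all genes were lower and 7.73% higher. Of 8 macrophage markers 1 was lower and 4 higher, and 4 of 4 tested mast cell and basophil markers were lower. Mmp8, a granulocyte collagenase gene, had a median of 98.2 RPKM in dKO and 51 RPKM in WT, against the direction of most of its list. The part of these cells in the lower replication and mitosis genes was not tested. Lymphocyte markers (6 genes) did not exceed 1.16 RPKM in sum in dKO and 1.28 RPKM in WT, and erythroid markers (4 of 5 in the table, 2 of them at 0 in all libraries) did not exceed 0.173 RPKM in dKO and 0.225 RPKM in WT.

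After LPS most replication and mitosis genes fell in WT cells, and at 1 h those called were mainly replication genes. At 1 h 14 of 40 members were lower than at 0 h and 2 higher by limma (45.5% and 6.84% of all genes), at 2 h 34 lower and 1 higher (68.5% and 11.2%), and at 6 h 35 lower and 2 higher (60.9% and 14.9%). The members' median log2 changes were -0.48, -1.23 and -1.88, against -0.42, -0.73 and -0.65 for all genes. The share lower at 1 h was thus below that of all genes. Because the median of all genes moved by this much, the counts depend on scaling. Under median-of-ratios scaling 5 members were lower and 2 higher at 1 h, 19 lower and 4 higher at 2 h, and 30 lower and 4 higher at 6 h, with median log2 changes of -0.02, -0.47 and -1.30, and 13.1%, 31.1% and 33.8% of all genes were lower. In all 3 scalings 5, 18 and 29 members were lower at 1, 2 and 6 h.

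By role, 9 of 13 replication genes, 4 of 7 regulators and 1 of 20 mitotic genes were lower at 1 h. At 2 h the counts were 11 of 13, 5 of 7 and 18 of 20, and at 6 h 12 of 13, 5 of 7 and 18 of 20. Median log2 changes of the replication genes were -0.78, -1.18 and -1.82 at 1, 2 and 6 h, and those of the mitotic genes -0.29, -1.20 and -2.56. The difference between the roles at 1 h was not tested as such. The single mitotic gene called lower at 1 h was Ttk, whose level is low (2.36 ± 0.37 RPKM at 0 h), and this call was lost in both other scalings. Of the 9 replication genes lower at 1 h, 3 were lower in all 3 scalings.

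Of the replication genes Pcna, Rrm1, Rrm2 and Tyms were not called at 1 h. Relative to 0 h, Cdc6 changed by -1.28, -1.5 and -1.82 at 1, 2 and 6 h (log2, each ± 0.18), and Mcm5 by -0.90, -1.42 and -1.84 (each ± 0.22), all called by limma. Cdc6 passed the filter only through the WT libraries at 0 h, so its falls rest on the group that admitted it. Fbxo5 had most of its change by 2 h, with -1.45, -2.39 and -2.29 (each ± 0.38), all called. Cdk1 changed by -0.26, -0.62 and -1.59 (each ± 0.18), with the first not called and the second turned to 0.13 under median-of-ratios scaling and 0.14 under quantile normalization. Ccna2 changed by -0.47, -1.58 and -3.24 (each ± 0.35), Kif11 by -0.28, -1.36 and -2.74 (each ± 0.27) and Rrm2 by -0.24, -1.08 and -3.08 (each ± 0.33), and none of these 3 was called at 1 h. Plk1 changed by -0.50, -1.72 and -2.62 (each ± 0.32), the last 2 called. At 6 h the largest falls were those of Ccna2 (1.30 ± 0.45 RPKM, against 16.1 ± 1.9 RPKM at 0 h), Cdc20 (0.702 ± 0.288 RPKM, against 10.5 ± 1.3 RPKM at 0 h) and Birc5 (1.70 ± 0.30 RPKM, against 19.6 ± 2.7 RPKM at 0 h), with log2 changes of -3.24, -3.22 and -3.19.

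Some members did not follow. E2f8 averaged 6.06, 14.9, 11.0 and 3.92 RPKM in WT at 0, 1, 2 and 6 h, and was called higher at 1 and 2 h (log2 change 1.23 ± 0.25 and 0.81 ± 0.25, limma adjusted p = 5.98e-04 and 0.00449) and lower at 6 h (-0.57 ± 0.25). The rise held in all 3 scalings, while the change at 6 h (limma adjusted p = 0.0407) was lost without any of 5 WT libraries, replicate 1 or 2 at 0 h and replicate 1, 2 or 4 at 6 h (-0.58 to -0.49), and turned to 0.055 under median-of-ratios scaling and 0.21 under quantile normalization. Mki67 in WT averaged 20.2, 36.9, 25.8 and 9.04 RPKM over the same times, called higher at 1 h (0.85 ± 0.26) in all 3 scalings and lower at 6 h (-1.12 ± 0.26) as deposited only. All 4 WT libraries at 1 h were above all 4 at 0 h for both genes.

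Pcna in WT was not called lower before 6 h, with log2 changes of 0.03, 0.18 and -1.04 (each ± 0.17) at 1, 2 and 6 h, and only the last was called as deposited. Under median-of-ratios scaling its changes were 0.51, 0.96 and -0.36, and only that at 2 h was called. Tyms and Brca1 were higher at 6 h in all 3 scalings: Tyms had 6.37 ± 0.90 RPKM at 6 h, against 3.08 ± 0.24 RPKM at 0 h, and Brca1 had 5.63 ± 0.94 RPKM at 6 h, against 3.29 ± 0.29 RPKM at 0 h. Cenpe averaged 4.78, 4.48, 2.44 and 5.92 RPKM and Tpx2 8.69, 7.41, 5.05 and 9.12 RPKM at 0, 1, 2 and 6 h in WT. Both were called lower at 2 h as deposited (log2 change -0.83 ± 0.32 and -0.74 ± 0.28), turned to 0.12 and 0.10 under quantile normalization, and were not called at 6 h as deposited (0.29 and 0.07) but higher in both other scalings. The call of Cenpe at 2 h was lost without WT replicate 2 at 0 h (-0.74) and that of Tpx2 without WT replicate 3 at 2 h (-0.65). Ccne1 was lower at 1 and 2 h (-1.33 ± 0.36 and -1.57 ± 0.36) and not called at 6 h (-0.31 ± 0.36), with 10.6, 3.94, 3.28 and 8.44 RPKM at 0, 1, 2 and 6 h. In the same libraries 21, 37 and 33 of 40 other replication genes and 9, 42 and 44 of 46 other mitosis genes were lower at 1, 2 and 6 h, where 45.5%, 68.5% and 60.9% of all genes were, so that the mitosis list at 1 h was below the share of all genes. Of 13 E2F and pocket protein genes 8, 9 and 8 were lower, close to that share at 2 and 6 h, among them E2f2 (0.858 ± 0.163 RPKM at 6 h, against 14.2 ± 0.6 RPKM at 0 h).

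**Figure D5:**
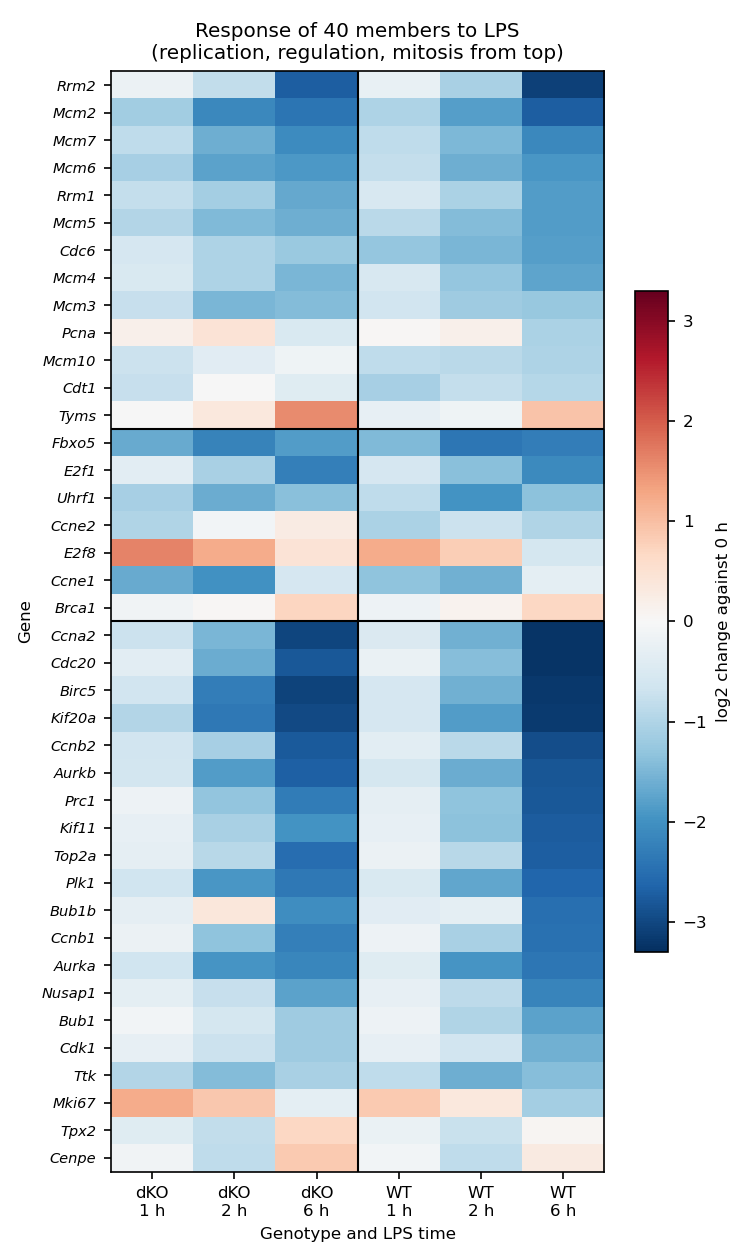
The heat map gives the log2 change after 1, 2 and 6 h of LPS relative to 0 h for the 40 tested members by role, in dKO (left, without the 5 libraries) and WT (right). In dKO at 2 h this leaves 2 libraries. Most rows are blue (lower) and darkest at 6 h, while E2f8 and Mki67 were higher at 1 h in WT (1.23 and 0.85) and Tyms and Brca1 higher at 6 h (0.94 and 0.68).

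In dKO cells most members were lower at 2 and 6 h of LPS as deposited, as were most of all genes. With all libraries 17, 29 and 29 of 40 members were lower at 1, 2 and 6 h and 2, 1 and 2 higher by limma, where 44.1%, 53.8% and 60.2% of all genes were lower and 5.82%, 9.17% and 14.7% higher. The higher ones were E2f8 and Mki67 at 1 h, Tyms at 2 h, and Tyms and Brca1 at 6 h. Tyms had 5.05 ± 2.12 RPKM in dKO at 6 h, against 1.58 ± 0.12 RPKM at 0 h. Without the 5 libraries 24, 31 and 33 were lower and 3, 3 and 5 higher, the last being Tyms, E2f8, Brca1, Cenpe and Tpx2, where 67.8%, 72.3% and 68.5% of all genes were lower and 9.49%, 13.8% and 18.8% higher. With or without the 5, the share of members lower at 1 h was below that of all genes. Under median-of-ratios scaling of all libraries 5, 17 and 28 were lower and 3, 4 and 6 higher. The shares of all genes above are those of the values as deposited, and none is given for this scaling. Mean summed levels of the 20 mitotic genes were 130, 107, 78.5 and 48.5 RPKM at 0, 1, 2 and 6 h in dKO and 232, 202, 117 and 49.2 RPKM in WT. For the 13 replication genes they were 145, 117, 111 and 83.1 RPKM in dKO and 233, 171, 144 and 81.7 RPKM in WT, of which Pcna makes up a large part. Each of these dKO means includes at least 1 of the 5 libraries. At 6 h dKO replicate 4 had sums of 75.9 RPKM (mitotic) and 115 RPKM (replication). The other dKO libraries had 44.0, 40.3 and 34.0 RPKM (mitotic) and 76.0, 69.7 and 71.7 RPKM (replication). These lay below all WT libraries at 6 h, at 47.7 to 50.1 RPKM (mitotic) and 78.1 to 83.0 RPKM (replication).

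The response to LPS itself was not called different between dKO and WT for any member. By limma 0 of 40 members differed in response at 1, 2 or 6 h, where 0.0179%, 0.17% and 0.35% of all genes were lower and 0.0179%, 0.134% and 0.574% higher. An unadjusted p below 0.05 was found for 2, 8 and 9 members, for which no share of all genes is given. Limma with array weights called 1, 1 and 10 members, and leaving out the 5 libraries called 0, 1 (Cdt1) and 10, where 1.01%, 2.91% and 10.5% of all genes were lower and 0.789%, 2.71% and 9.8% higher. All 10 at 6 h without the 5 libraries were higher, meaning a smaller fall or a larger rise of log2(RPKM + 0.5) in dKO than in WT. They were Mcm10, Cdc6, Cdt1, Pcna, Tyms, Ccne2, E2f8, Kif11, Tpx2 and Mki67. Among them Ccne2 had the largest difference (1.24 ± 0.35 with all libraries, limma adjusted p = 0.1, and 1.26 without the 5, adjusted p = 0.00276). With its 95% interval of 0.52 to 1.95 the difference with all libraries spans a broad range. For Kif11 it was 0.99 ± 0.38 with all libraries (adjusted p = 0.328) and 0.77 without the 5 (adjusted p = 0.0204). Kif11 at 6 h was at 0.615 ± 0.350 RPKM in dKO and 0.600 ± 0.064 RPKM in WT, and at 0.446 RPKM (0.336 to 0.561) in dKO without the 5. Without the 5 libraries Cdc6 averaged 0.810 RPKM at 0 h and 0.059 RPKM at 6 h in dKO, against 1.84 and 0.160 RPKM in WT. Near or below the added 0.5 the log2 scale understates a fall, so a smaller fold change of Cdc6 in dKO is not shown.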

How the data were processed

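RNA extracted with Trizol (4 ug per library, TruSeq v2) was sequenced, and each deposited table lists 22308 entries (22216 genes and 92 spike-in entries). Values are RPKM, made by the authors with CASAVA 1.8.2 on genome mm9, per the submitters' processing notes. The aligner settings, gene models and strand use are not given in the sources used here. A further deposited column with no header was read as coverage (signal) in aligned bases per gene and gave only the depth. Read counts are unknown, so no counting interval was computed.

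From these values, log2(RPKM + 0.5) of the 11154 genes with at least 1 RPKM in at least 4 of 32 libraries was fitted with limma 3.58.1 (R 4.3.3, 8 group means, eBayes with trend), with 14 contrasts. P-values are two-sided and Benjamini-Hochberg adjusted over all genes, called below 0.05. Single values were also compared with an exact two-sided permutation test over 8 libraries (70 splits, smallest p 0.0286). The fit was tested on simulated data. Alternatives were a pseudocount of 0.1 or 1, median-of-ratios and quantile scaling, no filter or RPKM 5, a replicate block, array weights and leaving out each library, and, chosen after seeing the data, leaving out 5 dKO libraries. The members, lists and alternatives were chosen with earlier results of these data known. Values of each library are given for the 2 members of each role with the smallest adjusted p for the average genotype difference and the 2 for WT at 6 h, plus Pcna, Mki67 and E2f1. Up to 4 other genes per list follow the same ranking. Positions of genes are those of the tables (mm9), and promoters are from RefSeq GRCm38.p6. The 9 symbols with several entries (23 entries) include no member.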

Additional observations from a re-analysis of the deposited data

Results flagged for a closer look

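In 112 groups of 4 libraries (14 members in 8 groups), 14 values stood far from the other 3 libraries of their group by Dixon's criterion, where chance flags about 1 in 20 groups. Of the 14, 11 lie in the 5 dKO libraries that were nearest to WT libraries of another LPS time. In dKO replicate 2 at 2 h, Mcm5 was at 5.93 RPKM (the others 2.10 to 2.48), Mcm6 at 12.6 (3.23 to 4.39), Cdc6 at 0.681 (0.0880 to 0.176), Uhrf1 at 5.29 (0.990 to 1.58) and Fbxo5 at 4.27 RPKM (0.260 to 0.589). That library is the one nearest to WT at 0 h. In dKO replicate 4 at 6 h, Rrm2 was at 3.56 RPKM (0.677 to 1.08), Pcna at 78.2 (36.1 to 40.6) and Mki67 at 24.2 RPKM (8.77 to 10.4). In dKO replicate 2 at 0 h, Brca1 was at 0.978 RPKM (1.51 to 1.57) and Fbxo5 at 0.627 RPKM (3.37 to 3.91), and in dKO replicate 2 at 1 h E2f1 was at 4.73 RPKM (9.73 to 10.6). The other 3 were Mcm5 and Ccna2 in dKO replicate 1 at 1 h, at 4.71 RPKM (2.88 to 3.16) and 6.79 RPKM (4.02 to 4.35), and Pcna in WT replicate 3 at 0 h, at 62.2 RPKM (70.9 to 71.9).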

How the results depend on the processing

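Members lower in dKO averaged over the 4 times (33) stayed within 1.5 times that count in every alternative run, and leaving out any library gave 33 to 36. At 0 h (15 lower) pseudocount 1 gave 24, limma array weights 39 and the fit without the 5 dKO libraries, chosen after seeing the data, 39. At 1 h (23) array weights and the fit without the 5 each gave 37. At 2 h (8) median-of-ratios scaling gave 20, quantile normalization 21, no filter 4, the replicate block 5, array weights 26 and the fit without the 5 27. At 6 h (5) array weights and the fit without the 5 each gave 22.

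For LPS in WT, members lower at 1 h (14) numbered 5 under median-of-ratios scaling, 9 under quantile normalization, 9 with a filter at RPKM 5, 31 with array weights and 23 without the 5 libraries. At 2 h (34 lower, 1 higher) both scalings gave 19 lower and 4 higher, and array weights and the fit without the 5 each 3 higher. At 6 h (2 higher) both scalings gave 4 and the filter at RPKM 5 gave 1. For LPS in dKO, members lower at 1 h (17) numbered 5, 4, 31 and 11 under median-of-ratios, quantile, array weights and the replicate block within genotype, and lower at 2 h (29) 17 and 13 under the first 2. Members higher at 2 h (1) numbered 4 and 3 under the 2 scalings, 0 with no filter, with the replicate block and with the block within genotype, and 3 with array weights and without the 5. Members higher at 6 h (2) numbered 6 and 8 under the 2 scalings, 1 with the filter at RPKM 5, and 5 with array weights and without the 5. Different responses at 1, 2 and 6 h (0 each) numbered 1, 1 and 10 with array weights and 0, 1 and 10 without the 5.

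Leaving out 1 library gave 6 to 31 lower in dKO at 0 h, 11 to 31 at 1 h, 1 to 24 at 2 h and 2 to 7 at 6 h. At 0 h, 7 and 6 were called without WT replicate 1 and 2, 8 and 9 without dKO replicate 2 and 3, 23 without dKO replicate 4 at 2 h and 25 without dKO replicate 4 at 6 h. At 1 h, 11 were called without WT replicate 4 and 12 without dKO replicate 2. At 2 h, 21 of the 32 omissions moved the count by over 1.5 times, to 1 without dKO replicate 4, to 2 without WT replicate 1, 2 or 4, to 24 without dKO replicate 2 and to 5 in the other 16. At 6 h, 2 were called without WT replicate 1 or dKO replicate 3 or 4, and 3 without WT replicate 4. After LPS in WT the ranges were 12 to 16 lower at 1 h, 33 to 34 at 2 h and 34 to 35 at 6 h, with 2, 1 and 2 higher throughout. In dKO they were 5 to 19, 22 to 29 and 29 to 31 lower and 1 to 2, 0 to 2 and 2 to 4 higher (1 at 1 h without replicate 1 or 3 at 0 h; 0 at 2 h without replicate 1, 3 or 4 at 0 h or 3 or 4 at 2 h, and 2 without replicate 2; 4 at 6 h without replicate 4). At 1 h in dKO, 7, 8 and 5 were lower without replicate 1, 3 or 4 at 0 h and 8 without replicate 2 at 1 h. Different responses were 0 at 1 and 2 h and 0 to 1 at 6 h (1 without dKO replicate 2 at 2 h or replicate 4 at 6 h).

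Of 172 called changes of single members (dKO against WT at each time and on average, and WT after LPS), median-of-ratios scaling turned the sign of 2 (Cdk1 at 2 h, to 0.126, and E2f8 at 6 h, to 0.0548) and ended 36 more. Quantile normalization turned 7 (at 2 h Mcm10 to 0.0933, Cdt1 to 0.0469, Ccne2 to 0.25, Cdk1 to 0.14, Cenpe to 0.12 and Tpx2 to 0.10, and at 6 h E2f8 to 0.21) and ended 28. The replicate numbers did not pair the genotypes: deviations of same-numbered dKO and WT libraries correlated above 0.1 in 1 of 16 pairs (median 0.05). Between times they did so in 16 of 24 pairs within WT (median 0.14) and 5 of 24 within dKO (median -0.07), so not every pair passed there either. With the block within genotype 13, 34 and 34 members were lower in WT at 1, 2 and 6 h of LPS. With the replicate block 165 of the 172 calls were kept, and the fit without the 5 libraries kept 171. Leaving out a single library ended 0 of the 33 calls on average, but 9 of 15, 14 of 23, 7 of 8 and 3 of 5 at 0, 1, 2 and 6 h ended without some library, as did 6 of the 88 for LPS in WT. The causes of these differences were not tested. Depth limits the low members, above all Cdc6 and Chek1, which were under 1 RPKM in every library after LPS.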

Other observations

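Several other genes of the same pathways fell after 6 h of LPS in WT. Clspn, an adaptor of the replication checkpoint, averaged 0.239 RPKM at 6 h, against 3.92 RPKM at 0 h, and Pola1, the catalytic subunit of the DNA polymerase that starts synthesis, 0.358 RPKM at 6 h, against 3.48 RPKM at 0 h. Cdc25b, the phosphatase that activates cyclin-dependent kinases at mitotic entry, averaged 0.381 RPKM at 6 h, against 11.6 RPKM at 0 h (log2 change -3.78 ± 0.39, limma adjusted p = 2.64e-08). Espl1, the separase that cuts cohesin, averaged 0.233 RPKM at 6 h, against 3.55 RPKM at 0 h. Of the pocket protein group, Rb1, the retinoblastoma gene, averaged 6.99 RPKM at 6 h, against 17.8 RPKM at 0 h.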
